A study of Mus musculus with 6 samples.

Results

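A list of 42 interferon-stimulated genes headed by Cxcl10 was examined in Lewis cells, a mouse lung carcinoma line that the labels describe as lung adenocarcinoma cells, after 24 hours with DMSO (n = 3) or SD70, an inhibitor of the histone demethylase KDM4C (n = 3). The members were chosen by gene symbol as genes known to respond to interferon, and the list was drawn up with earlier results of these samples known, that of Cxcl10 among them. Of the 42 members, 40 were among the 16081 genes listed in the files and 30 passed the filter on low counts and were tested, of 11552 genes tested in all. Mx1 and Mx2 were the members not listed, and the RefSeq annotation of GRCm38.p6 gives both as transcribed pseudogenes. The groups shared the same cell line and culture medium and differed in the agent given, and no dose of SD70 was stated for the RNA-seq samples. Totals ranged from 15276744 to 17060424 counts per sample. The methods describe the study's experiments in general as independently repeated, but no source ties this to the 3 RNA-seq samples of a group or says whether they came from separate cultures, so the p-values measure the spread between these samples, which may be technical.

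Interferons are cytokines that cells release when nucleic acid sensors such as RIG-I and MDA5 detect virus, and they act back on the same and neighbouring cells. Type I interferon binds the receptor of Ifnar1 and Ifnar2, whose kinases phosphorylate STAT2. With IRF9 it takes part in the complex ISGF3, which binds the interferon-stimulated response element (ISRE) in promoters, whereas interferon gamma acts at the GAS element. The products cut or sequester viral RNA, tag proteins with ISG15, attack vacuoles with GTPases and, through CXCL10, attract T cells that carry CXCR3. Some of these genes, Cxcl10 the best known among them, are also switched on by NF-kB, so the question for this list was whether its members moved together or whether only those also driven by NF-kB moved.

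To show what the promoters of the members hold, 4 motifs were searched on both strands from 250 bases before to 50 bases after the annotated start in the RefSeq promoters of GRCm38.p6. A promoter was found for 32 of the 42 members. The ISRE core GAAANNGAAA was present in 16 of these 32 members (50%), against 3.99% of all 27025 genes with a promoter. The NF-kB (kB) consensus was present in 3 of 32 members, Cxcl10, Bst2 and Oasl1 (9.38%), against 5.14% of all genes. A looser kB form, GGGNNNNNCC, which takes in the consensus, matched 21 of 32 members (65.6%) and 53.5% of all genes. The GAS core TTCNNNGAA, which reads alike on both strands, matched 6 of 32 members (18.8%) and 9.55% of all genes. A match is a description of the letters and not a site of binding.

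The promoter of Cxcl10 is shown first because it alone among the 32 members held both ISRE and kB matches and passed the test for a change in its transcript. Capitals mark the ISRE match, which began 213 bases before the start, and then the kB matches, which began 159 and 103 bases before the start. In all sequences printed here each strand is read in the direction of the gene, and TTTC repeats are the ISRE core on the opposite strand.
Cxcl10, chr5:92348973-92349112, minus strand: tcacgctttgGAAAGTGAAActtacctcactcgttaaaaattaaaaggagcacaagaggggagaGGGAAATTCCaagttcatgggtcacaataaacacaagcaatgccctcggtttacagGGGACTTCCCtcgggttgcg

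The next windows belong to members that rose by more than 2-fold under SD70 and held an ISRE match and no kB match, with the ISRE matches in capitals. Overlapping matches appear as 1 run of capitals.
Isg15, chr4:156200865-156200906, minus strand: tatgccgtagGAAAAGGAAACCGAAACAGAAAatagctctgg
Ifit1, chr19:34640775-34640823, plus strand: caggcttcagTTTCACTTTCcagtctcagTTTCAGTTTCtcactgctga
Rsad2, chr12:26456553-26456582, minus strand: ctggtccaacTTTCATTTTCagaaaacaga
Gbp2, chr3:142620594-142620623, plus strand: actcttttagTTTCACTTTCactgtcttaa
Gbp7, chr3:142530273-142530302, plus strand: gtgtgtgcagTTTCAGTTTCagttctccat

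The last windows belong to the 8 tested members that held an ISRE match and were not called higher. The untested members Gbp3 and Ifit3b also held ISRE matches, and their windows are not printed. Stat2 and Ddx58 fell, and the others did not pass the test. In Bst2 the first run of capitals is a kB match and the second holds 2 overlapping ISRE matches, and a GAS match of the same promoter overlapped both. No other member had matches of ISRE, kB and GAS that overlapped.
Bst2, chr8:71537577-71537624, minus strand: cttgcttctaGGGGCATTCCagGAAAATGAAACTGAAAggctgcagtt
Stat2, chr10:128270266-128270295, plus strand: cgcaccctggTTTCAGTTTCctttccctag
Ddx58, chr4:40239804-40239833, minus strand: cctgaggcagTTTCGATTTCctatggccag
Irgm1, chr11:48871425-48871460, minus strand: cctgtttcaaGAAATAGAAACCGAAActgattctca
Igtp, chr11:58199512-58199541, plus strand: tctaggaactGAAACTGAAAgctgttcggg
Ifit3, chr19:34583363-34583426, plus strand: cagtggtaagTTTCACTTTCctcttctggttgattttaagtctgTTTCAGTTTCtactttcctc
Oas1a, chr5:120907520-120907555, minus strand: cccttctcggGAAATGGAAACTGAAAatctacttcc
Ifih1, chr2:62646206-62646233, minus strand: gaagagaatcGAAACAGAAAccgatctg

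Under SD70 the members did not move as a block. Normalized counts are the deposited counts scaled to a common library size, and a gene was called when its adjusted p-value (edgeR's quasi-likelihood test, Benjamini-Hochberg over 11552 genes) was under 0.01 and its log2 fold change at least 1 in size. Of the 30 members tested, 8 were called higher (3.29% of all genes tested were) and 0 lower (2.61% of all). The 8 were Rsad2, Ifit1, Cxcl10, Gbp2, Gbp7, Isg15, Parp14 and Oasl2. None of the 30 was called lower by DESeq2 or limma either, and in the edgeR fit of all 6 samples none had an unadjusted p under 0.05 together with a fall of 2-fold. Without SD70 replicate 2, Ifit3 did (log2 fold change -1.13, adjusted p = 0.0536).

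Counting changes of any size at an adjusted p under 0.01, 13 of 30 members rose and 4 fell, where 25.8% of all genes tested rose and 24.2% fell. The 4 that fell were Samd9l, Stat2, Trim25 and Ddx58. In 18 of 30 members the lowest SD70 sample exceeded the highest DMSO sample, which held for 32.8% of all genes. In 6 members the order was the opposite, which held for 31.6% of all genes, and in 6 the groups overlapped. The median log2 fold change of the 30 was 0.28, against -0.00 over all genes, and the range was -0.42 to 4.21.

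**Figure D1:**
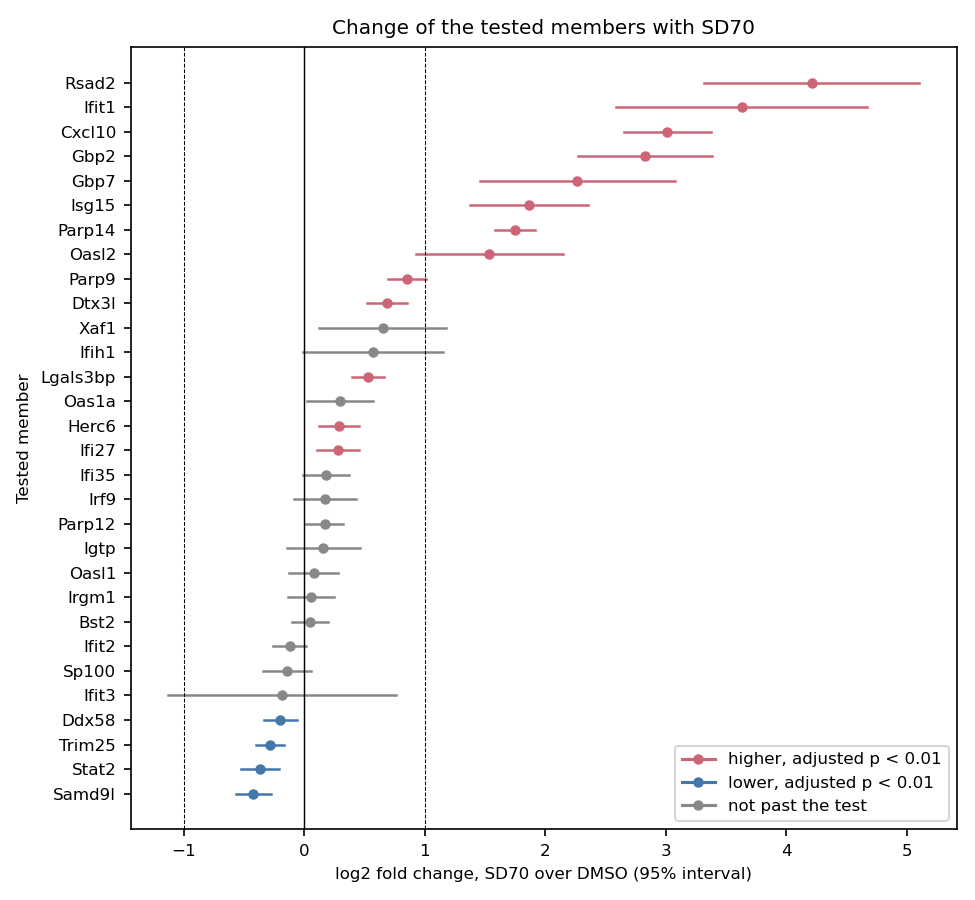
Change of the 30 tested members under SD70. Points give the log2 fold change of SD70 over DMSO and lines its 95% interval from edgeR (n = 3 per group), and dashed lines mark a 2-fold change. The 8 members at the top lie beyond a log2 fold change of 1, whereas the 4 members that fell lie between -0.42 and -0.20.

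These counts depended on how the members entered the test. Of the 8 called members, 6 (Oasl2, Isg15, Gbp7, Gbp2, Ifit1 and Rsad2) passed the filter through their SD70 samples alone. That is, they reached its level in every SD70 sample but not in every DMSO sample. Their entry favoured a rise, and their number is no support for the list. Isg15 came closest to passing in both groups, with 10, 19 and 18 counts under DMSO. With at least 10 counts required in every sample it was still called (log2 fold change 1.85, adjusted p = 1.85e-08 by edgeR). A total of 23 members passed the filter in both groups. Of these, 2 were called higher (Cxcl10 and Parp14), 7 rose and 4 fell at any size (3.29%, 25.8% and 24.2% of all genes tested). The groups were separate upward in 12 and downward in 6 (32.8% and 31.6% of all genes tested). The median log2 fold change of the 23 was 0.17. Ifit3 passed through 3 samples from both groups together.

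By level, 2 of the 40 listed members were silent (at most 3 counts in every sample), 13 were low (a mean normalized count under 20), 6 were intermediate (20 to under 100) and 19 were well counted (100 or more). The 19 well counted members gave 1 called gene, Parp14, with 6 that rose and 4 that fell at any size and 9 that did not pass. Among all 9623 genes of that class, 2.6% were called higher and 1.3% lower, and 28.5% rose and 25.4% fell at any size. The well counted members thus rose and fell at shares near those of other genes of the class. Summed over the listed members, the normalized counts were 8694 to 8944 under DMSO and 9561 to 9922 under SD70. In bulk RNA, more cells that transcribe a gene and more RNA of it per cell cannot be told apart.

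**Figure D2:**
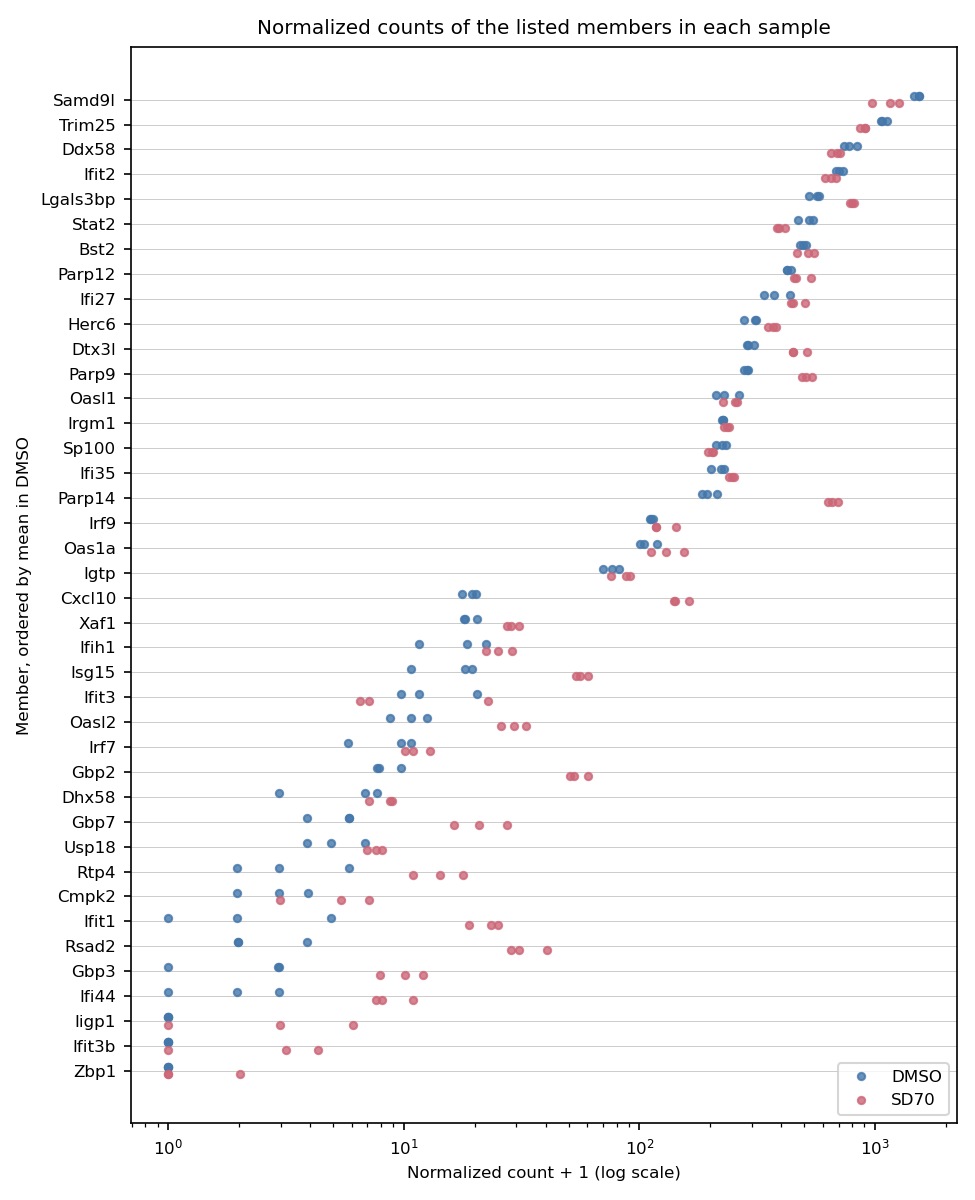
Normalized counts of the 40 listed members in each of the 6 samples, on a log axis after adding 1 count. Members are ordered by their mean in DMSO, and each point is 1 sample. The silent and low members at the bottom lie mostly to the right under SD70, whereas the best counted members at the top lie on either side.

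Among well counted members, those with a lower level in DMSO tended to the larger log2 fold changes. Across these 19 members Spearman's rho between the mean in DMSO and the log2 fold change was -0.57, and across all 9623 well counted genes it was -0.07. The 2 measures share the DMSO samples and members are not independent of one another, so the value is a description.

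**Figure D3:**
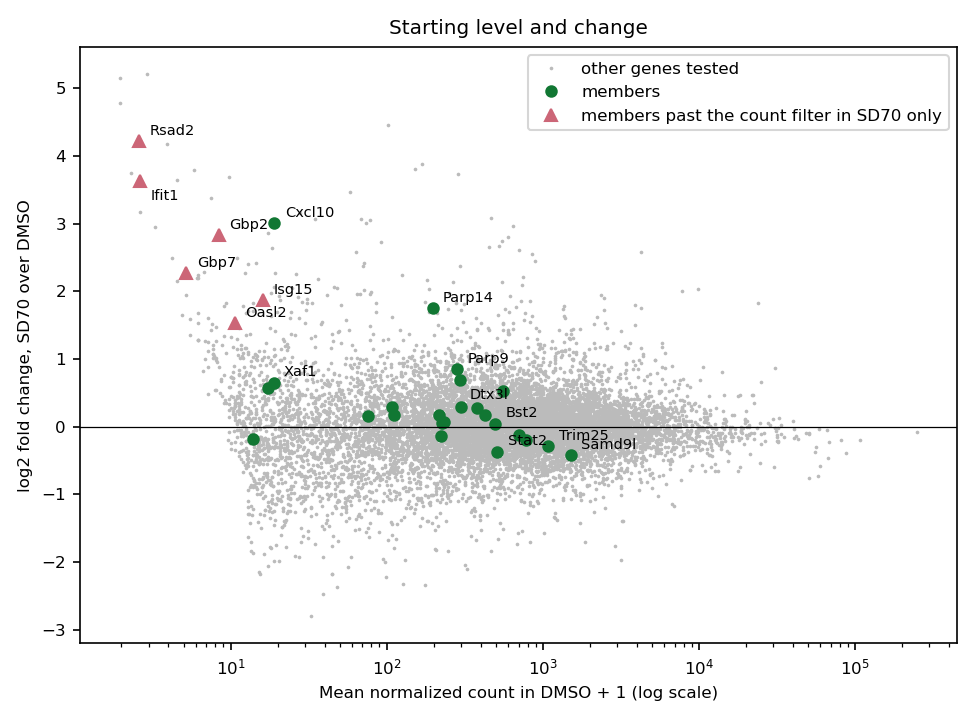
Mean normalized count in DMSO (log axis, 1 count added) against the log2 fold change of SD70 over DMSO for all 11552 genes tested. Circles are members. Triangles are the 6 members that reached the level of the filter on low counts in every SD70 sample but not in every DMSO sample. The triangles lie at the low end of the DMSO levels, and Cxcl10 and Parp14 are the circles above a log2 fold change of 1.

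Cxcl10 encodes the chemokine that attracts CXCR3-bearing T cells and natural killer cells. Its normalized counts were 16.6, 18.4 and 19.2 under DMSO and 139, 141 and 160.6 under SD70. The groups were far apart, and the level moved from the low range into the range of a well counted gene. The log2 fold change was 3.01 ± 0.18 (SE; 95% interval 2.65 to 3.37; adjusted p = 1.90e-16 by edgeR). Scaled for length, Cxcl10 rose from 1.19 ± 0.08 to 9.49 ± 0.83 FPKM (SD, n = 3), from rank 22 to rank 9 of the 40 listed members. The related chemokine Cxcl9, which interferon gamma induces, had 0 counts in each DMSO sample and 1, 1 and 2 counts under SD70.

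The ISG15 pathway joins the ubiquitin-like protein ISG15 to other proteins. Isg15 itself had normalized counts of 9.7, 18.4 and 17.3 under DMSO and 54.8, 52.6 and 59.4 under SD70. The lowest SD70 value was far above the highest DMSO value. The log2 fold change was 1.86 ± 0.24 (SE; adjusted p = 3.25e-08 by edgeR). Herc6, the mouse ligase that attaches ISG15, had 276.7, 311.8 and 308.8 under DMSO and 378.5, 368.4 and 349.8 under SD70, a log2 fold change of 0.29 ± 0.08 (adjusted p = 0.0028). Its adjusted p was 0.01 or more in 6 of 13 alternatives, the largest being 0.0346. Trim25, a ubiquitin ligase that activates RIG-I, went the other way. It had 1127, 1062 and 1068 under DMSO and 902.2, 909.6 and 859.2 under SD70, a log2 fold change of -0.29 ± 0.06 (adjusted p = 8.25e-05). Usp18, the protease that removes ISG15 and dampens receptor signaling, was low, with 4, 6 and 3 counts under DMSO and 7, 6 and 6 under SD70, and was not tested.

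The IFIT proteins bind foreign RNA, and their genes lie next to each other on chromosome 19. Ifit1 had normalized counts of 3.9, 0 and 0.96 under DMSO and 22.3, 17.9 and 24.2 under SD70. The groups did not overlap, from a base of 5 counts over the DMSO group, and the log2 fold change was 3.63 ± 0.51 (SE; adjusted p = 2.06e-07 by edgeR). Without DMSO replicate 1, which held 4 of those 5 counts, it was 5.14, so the size of this rise is uncertain. Its neighbour Ifit2, at 11.4 FPKM under DMSO against 0.04 for Ifit1, did not pass the test. Ifit2 had 700.6, 732.3 and 684.7 under DMSO and 683, 647.5 and 612.8 under SD70, a log2 fold change of -0.12 ± 0.07 (95% interval -0.26 to 0.01; adjusted p = 0.106). Ifit3 had 8.8, 19.4 and 10.6 under DMSO and 6.1, 21.7 and 5.5 under SD70, and the groups overlapped. Its log2 fold change was -0.18 ± 0.45 (adjusted p = 0.746), and its sign turned when DMSO replicate 2 (0.22), SD70 replicate 1 (0.12) or SD70 replicate 3 (0.11) was left out. Its near copy Ifit3b was silent, with 0, 0 and 0 counts under DMSO and 0, 2.17 and 3 under SD70. The counts of both genes were fractional in 1 sample, SD70 replicate 2, where they added to a whole number, and both are uncertain because near copies can share reads.

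Rsad2 encodes viperin, which makes a chain-terminating nucleotide that stops viral polymerases. It had normalized counts of 0.97, 0.97 and 2.9 under DMSO and 27.4, 29.8 and 39.6 under SD70. The groups were far apart, and the log2 fold change was 4.21 ± 0.44 (SE; adjusted p = 3.77e-10 by edgeR), from 5 counts over the DMSO group. It was 4.87 without DMSO replicate 3, which held 3 of those 5 counts, and 2.27 on log2(FPKM + 0.1). The order of the largest rises was not stable, since Ifit1 stood above Rsad2 without DMSO replicate 1 (5.14 against 3.97) and Cxcl10 stood above it on log2(FPKM + 0.1) (2.90 against 2.27) and on log2(FPKM + 1) (2.26 against 0.569). Cmpk2, a nucleotide kinase beside Rsad2 on chromosome 12, had 2, 3 and 1 counts under DMSO and 6, 2 and 4 under SD70, too few to test, and its groups overlapped.

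Neither of the 2 tested sensors of viral nucleic acid passed the test for a rise. Ddx58, which encodes RIG-I, was the best counted, with 836.1, 772.1 and 737.5 under DMSO and 708.3, 687.2 and 646.9 under SD70. All SD70 samples were lower, by a log2 fold change of -0.20 ± 0.07 (SE; adjusted p = 0.0096 by edgeR), and the adjusted p was 0.01 or more in 7 of 13 alternatives, reaching 0.076 without DMSO replicate 1. Ifih1, which encodes MDA5, had 17.5, 21.4 and 10.6 under DMSO and 21.3, 27.8 and 24.2 under SD70. The groups overlapped, and its log2 fold change was 0.57 ± 0.29 (adjusted p = 0.0861). Dhx58, which encodes the regulator LGP2, had 2 to 7 counts under DMSO and 6 to 8 under SD70, and Zbp1, a sensor of Z-form nucleic acid, had 1 count in a single SD70 sample and 0 in the other 5.

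None of the 3 tested transcription regulators passed the test for a rise, and 1 of them fell. Stat2 had normalized counts of 542.8, 522.5 and 468 under DMSO and 381.6, 414.1 and 390.6 under SD70. All SD70 samples were lower, by a log2 fold change of -0.37 ± 0.08 (SE; adjusted p = 9.28e-05 by edgeR). Irf9, its partner in ISGF3, had 110.1, 112.7 and 111.2 under DMSO and 116.7, 142 and 116.6 under SD70, a log2 fold change of 0.17 ± 0.13 (adjusted p = 0.254). Sp100, a nuclear body protein whose counts were not whole in any sample, had a log2 fold change of -0.14 ± 0.10 (adjusted p = 0.207), from 221.5 ± 10.8 to 200.7 ± 5.3 normalized counts (SD, n = 3). Irf7, the factor that amplifies type I interferon production, was low, with 9, 10 and 5 counts under DMSO and 9, 12 and 9 under SD70.

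The OAS proteins make the short oligoadenylates that activate RNase L. Oasl2 had normalized counts of 9.7, 7.8 and 11.5 under DMSO and 28.4, 24.8 and 31.9 under SD70, a log2 fold change of 1.54 ± 0.30 (SE; adjusted p = 4.14e-05 by edgeR). Its groups were separate at a low level, and the log2 fold change was 0.51 on log2(FPKM + 1). Oasl1, a brake on Irf7 translation, overlapped between groups, with 228, 209.8 and 263.7 under DMSO and 254.7, 258.2 and 225.5 under SD70 (log2 fold change 0.08 ± 0.10; 95% interval -0.13 to 0.28; adjusted p = 0.53). Oas1a also overlapped, with 103.3, 117.3 and 99.1 under DMSO and 110.8, 128.4 and 154.1 under SD70 (0.29 ± 0.13; adjusted p = 0.0594), and its counts were fractional in all 6 samples, so it is uncertain.

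Interferon-induced GTPases attack the vacuoles of intracellular parasites and bacteria. The guanylate-binding genes Gbp2 and Gbp7 rose from very low levels, whereas the immunity-related GTPases that were well or moderately counted did not pass. Gbp2 had normalized counts of 6.8, 8.7 and 6.7 under DMSO and 51.8, 49.6 and 59.4 under SD70, a log2 fold change of 2.83 ± 0.27 (SE; adjusted p = 6.34e-11 by edgeR). Gbp7 had 4.9, 4.9 and 2.9 under DMSO and 26.4, 19.9 and 15.4 under SD70, a log2 fold change of 2.27 ± 0.40 (adjusted p = 9.11e-06). Both lie with Gbp3 on chromosome 3. Gbp3 was not tested, with 0, 2 and 2 counts under DMSO and 9, 7 and 10 under SD70, and its groups were also separate. Irgm1, a regulator of the other immunity-related GTPases, had 224.1, 225.3 and 225.4 under DMSO and 227.3, 239.3 and 235.4 under SD70 (log2 fold change 0.06 ± 0.09; 95% interval -0.13 to 0.25; adjusted p = 0.62). Igtp, another of them, had 69.2, 75.8 and 80.6 under DMSO and 75.1, 86.4 and 90.2 under SD70 (0.16 ± 0.15; adjusted p = 0.379). Iigp1 had 0 counts in each DMSO sample and 5, 2 and 0 under SD70.

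The PARP genes and Dtx3l held the clearest rise among well counted members. Parp14 (chr16:35831892-35871518), an ADP-ribosyltransferase that acts in cytokine signaling, had normalized counts of 211.5, 193.3 and 183.2 under DMSO and 693.1, 627.6 and 656.8 under SD70. The groups were far apart, and the log2 fold change was 1.75 ± 0.08 (SE; 95% interval 1.58 to 1.92; adjusted p = 2.88e-19 by edgeR). Parp9 (chr16:35938470-35972621) and Dtx3l (chr16:35926515-35939027), which encode partners in a complex and whose annotated spans overlap, rose by less. Parp9 had 284.7, 287.8 and 278.1 under DMSO and 540.7, 486.9 and 507.4 under SD70 (0.85 ± 0.08; adjusted p = 1.65e-11), and Dtx3l had 305.8, 285.2 and 286.7 under DMSO and 514.7, 448.6 and 449.7 under SD70 (0.69 ± 0.08; adjusted p = 5.07e-09). Their counts were fractional in 5 of 6 samples and added to whole numbers in each of these, so reads appear to have been divided between the genes and both are uncertain. With both added as 1 feature, a step chosen after seeing the data, the log2 fold change was 0.77 ± 0.06 (adjusted p = 1.95e-12). Parp12, which restricts viral translation, lies apart on chromosome 6 and had 421.9, 423.4 and 438.3 under DMSO and 459.7, 451.8 and 533.6 under SD70 (0.17 ± 0.08; adjusted p = 0.057).

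The remaining effectors included Bst2, Ifi27, Samd9l and Lgals3bp, the 4 members with the highest level per length (FPKM) under DMSO, and they went in both directions. Bst2, which encodes tetherin and holds budding virus on the cell surface, had the highest level per length of all members in both groups, at 50.3 ± 1.7 FPKM under DMSO and 51.5 ± 4.2 under SD70 (SD, n = 3). Its groups overlapped at 479.4, 508.9 and 492.9 normalized counts under DMSO and 463.8, 550.2 and 516 under SD70 (log2 fold change 0.05 ± 0.07 SE; 95% interval -0.10 to 0.20; adjusted p = 0.609 by edgeR). Samd9l, a restriction factor that suppresses translation, had 1540, 1543 and 1459 under DMSO and 1259, 1152 and 970.3 under SD70. All SD70 samples were lower, by a log2 fold change of -0.42 ± 0.07 (adjusted p = 9.75e-06). Lgals3bp, a secreted galectin-binding glycoprotein, was higher in every SD70 sample, rising from 565.2, 522.5 and 577.3 to 795.6, 816.3 and 785.5 (0.53 ± 0.07; adjusted p = 1.72e-08). Ifi27, a mitochondrial protein, rose from 338.1, 435.1 and 370.2 to 447.5, 436.9 and 502.8 (0.28 ± 0.09; adjusted p = 0.0056), with the lowest SD70 sample barely above the highest DMSO sample and an adjusted p of 0.01 or more in 7 of 13 alternatives. Ifi35 had a log2 fold change of 0.18 ± 0.10 (adjusted p = 0.105). Xaf1, a pro-apoptotic protein, had 0.65 ± 0.26 (adjusted p = 0.0296), with 16.9 to 19.4 normalized counts under DMSO and 26.4 to 29.8 under SD70.

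The 10 listed members that were not tested all had a higher mean under SD70, as did 53.6% of the 4529 genes left out of the test. Once all genes with a count were fitted, 3 of the 10, Gbp3, Ifi44 and Rtp4, rose at an adjusted p under 0.01, where 1.27% of the 4504 genes so added rose and 0.733% fell. At these counts a fall could hardly show. Ifi44, an interferon-induced cytoplasmic protein, had 2, 0 and 1 counts under DMSO and 7, 10 and 6 under SD70 (adjusted p = 7.27e-04 in that edgeR fit). Rtp4, a chaperone of G protein-coupled receptors, had 5, 2 and 1 counts under DMSO and 13, 17 and 9 under SD70 (8.96e-05), and Gbp3 gave 5.33e-04. Iigp1 gave 0.0216, and the other 6 were above 0.05. Even under SD70 none of the 10 reached 20 counts in any sample.

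The promoter letters divided the members only in part. Over all genes tested, with or without a match, 3.29% were called higher, and 25.8% rose and 24.2% fell at any size. Such shares by motif were not computed for other genes. Of the 14 tested members with an ISRE match, 6 were called higher (Cxcl10, Gbp2, Gbp7, Ifit1, Isg15 and Rsad2), 2 fell (Stat2 and Ddx58) and 6 did not pass, with a median log2 fold change of 0.43. Of the 13 tested members whose promoters had no ISRE match, 1 was called higher (Oasl2), 4 rose and 2 fell at any size, with a median of 0.17. Of the 3 members with a kB match, 1 rose (Cxcl10), and Bst2 and Oasl1 did not pass. Of the 24 tested members whose promoters had no kB match, 6 were called higher. Of the called members in these counts, all but Cxcl10 passed the filter through SD70 samples alone, Isg15 with 10 counts or more in every DMSO sample. The counts and medians by motif are therefore a description and no support for a difference. Parp14, Parp9 and Ifi27, which rose, had no promoter in the table used. Among the members without a kB match that passed the filter in both groups, Herc6, Dtx3l and Lgals3bp rose. In the same group Samd9l, Stat2, Trim25 and Ddx58 fell, and each of these changes was less than 2-fold. By the looser kB form, 4 of the 18 tested members with a match were called higher (Cxcl10, Gbp2, Ifit1 and Rsad2) and 3 of the 9 without (Gbp7, Isg15 and Oasl2). Cxcl10 was the only member taken here as an established NF-kB target.

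The rest of the interferon pathway gave a mixed picture. Of 19 interferon ligand genes looked for, 5 were listed, 4 of them silent. Ifnb1, the first interferon that cells make, had 1 count in 1 SD70 sample and 0 in the other 5, and Ifnz had 1.93 to 3.48 counts per sample. Of the 8 tested receptor chains and kinases, 0 were called (3.29% of all genes tested were called higher and 2.61% lower). Their log2 fold changes ran from -0.31 to 0.46. Il10rb (0.46) and Ifngr1 (0.24) rose and Jak1 fell by 0.31 on the log2 scale. Ifnar1 (-0.13), Ifnar2 (0.17) and Ifngr2 (-0.14), chains of the type I and type II receptors, did not pass. Irf3, which is activated downstream of the sensors, had a log2 fold change of 0.34 ± 0.08 (SE; adjusted p = 2.67e-04 by edgeR).

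Among the 11 tested transcription factors and brakes of the pathway, 5 rose and 5 fell at any size (25.8% and 24.2% of all genes tested). Irf1, which both interferon gamma and NF-kB induce, was called higher. It had normalized counts of 298.2, 273.9 and 278.1 under DMSO and 700.2, 741.8 and 629.3 under SD70, a log2 fold change of 1.29 ± 0.08 (SE; adjusted p = 4.38e-16 by edgeR). Irf8 and Irf5, factors best known from myeloid and lymphoid cells, were called lower, Irf8 with a log2 fold change of -1.61 and Irf5 with -1.103. Nmi (0.62), a partner of the STAT proteins, and Ptpn2 (0.50), a phosphatase that restrains them, rose, and Pias1, another STAT inhibitor, fell by 0.51.

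Among 41 further interferon-stimulated genes outside the list, 12 rose and 14 fell at any size (25.8% and 24.2% of all genes tested). Their median log2 fold change was 0.07. The test called 5 of them higher (3.29% of all genes tested) and 2 lower (2.61%). The 5 included the guanylate-binding genes Gbp6 (3.06), Gbp4 (2.06) and Gbp9 (1.83), Slfn2 (2.43) and Adar (1.11), the RNA-editing enzyme. The called falls were Epsti1 (-1.55) and Ifi204 (-1.05).

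Genes known to answer both interferon and NF-kB, and NF-kB targets, were set beside the members. Of the 8 tested genes of both pathways, 6 were called higher (3.29% of all genes tested were), and the median log2 fold change of the 8 was 1.32. Among the 6 were the adhesion molecules Icam1 (3.80) and Vcam1 (1.64). Icam1 and Ccl5 (1.36) passed the filter through SD70 samples alone, so their entry favoured a rise as well. Irf1 is counted in this list too. Il15 fell by 0.76 on the log2 scale. Of 22 tested NF-kB targets, 15 were called higher, 21 rose at any size and 0 fell (3.29%, 25.8% and 24.2% of all genes tested). Their median log2 fold change was 1.40, against 0.28 for the members and -0.00 for all genes. Csf2 (4.46) and Cxcl5 (3.16) were the largest. These lists were drawn up with results of these samples known and are given as a description, and the difference between lists was not tested.

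**Figure D4:**
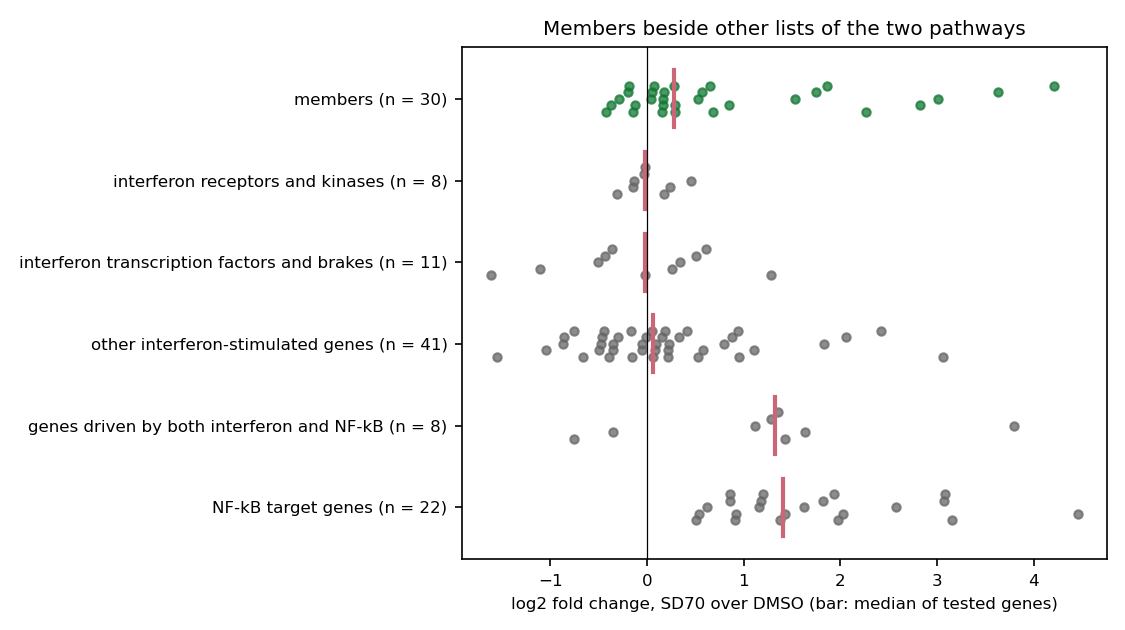
Log2 fold changes of SD70 over DMSO for the tested genes of each list. Each point is 1 gene and each bar the median of its list. The 30 members spread from -0.42 to 4.21 around a median of 0.28, and the 22 NF-kB targets all lie above 0.

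Cell type markers were looked at beside these results. Of the 10 leukocyte markers, 9 were listed and 4 tested. Ptprc, which defines leukocytes, had 0 counts under DMSO and at most 2 under SD70, and Csf1r and Fcer1g were silent. The summed level of the list, in deposited counts, was 530 to 554 counts under DMSO and 605 to 626 under SD70, and Cd14 (0.77) rose while Cd68 fell by 0.48. Of the 9 lung epithelial markers, 7 were listed, and Epcam, Cdh1, Krt19 and Sftpc had at most 1 count in any sample, whereas Krt8 was well counted and fell by 0.55 on the log2 scale and Krt18 fell by 1.23. The summed level of that list was 4104 to 4295 counts under DMSO and 2494 to 2981 under SD70, and that of the 7 fibroblast and endothelial markers was 2912 to 3000 under DMSO and 1687 to 1939 under SD70. Pdgfra (-0.999) carried most of that fall. Dcn (-0.19) also passed the test for a fall, and Lum (0.46) did not pass. Whether these shifts had a part in the members' values was not tested. Kdm4c itself, the target of the drug, had a log2 fold change of 0.02 ± 0.06 (SE; adjusted p = 0.769 by edgeR).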

How the data were processed

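Transcripts of Lewis cells were sequenced in 6 samples, 3 given DMSO and 3 given SD70, grouped from the sample titles. The authors sequenced on the BGISEQ-500 platform and aligned reads with HISAT to GRCm38.p6. The submitters' processing notes also list StringTie 1.3.3b and the build mm8, and the role of that build is not given in the sources used here. For each gene the authors deposited an estimated count, which carries no normalization and can be fractional (8.84% to 9.28% of values were), and a second value with no unit in its header, taken as FPKM from its values. Whether counting used strand is not given in the sources used here.

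Counts were rounded, filtered by filterByExpr (minimum count 10), normalized by TMM (factors 0.984 to 1.02) and tested in edgeR 4.0.16 (glmQLFit, robust; glmQLFTest) under R 4.3.3, with Benjamini-Hochberg adjustment over 11552 genes. The standard error came from the F statistic. Thresholds were an adjusted p of 0.01 and a log2 fold change of 1. The procedure was tested on simulated data. Alternatives were DESeq2's size factors, 2 other filters, an adjusted p of 0.05, blocking on replicate number, DESeq2 1.42.0 (Wald test), omission of single samples, and limma 3.58.1 on log2(FPKM + 1) and log2(FPKM + 0.1). Deviations of same-numbered samples from their group means correlated over 9623 genes (r = 0.18, 0.25 and 0.16). Differently numbered samples gave r from -0.186 to 0.0113. Pairing by number thus came from the data, not from the labels. The main fit was unpaired, and only the alternative with the replicate block used these pairs.

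Members and lists were chosen with earlier results of these data known. Named were every member by its level, members past the test, the 3 best counted tested members of each role, up to 6 genes of each other list, and Irf1, Irf3, the interferon receptors and Kdm4c. A result that this rule also names is not reported here. Cxcl9, Ifnb1, Ifnz, Ifi204 and the cell type markers were named after their values were seen. Sequences and start sites came from RefSeq for GRCm38.p6. With 3 samples per group, and counting error at low counts, precision is limited.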

Additional observations from a re-analysis of the deposited data

How the results depend on the processing

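The number of members called higher, 8, was 3 with at least 10 counts required in every sample, where 24 members were tested, and 4 on log2(FPKM + 1), which shrinks changes of low genes. Under the filter of 10 counts, 8 members rose at any size in place of 13. Leaving out each sample gave 8 to 9 members called higher and 0 called lower, 11 to 14 that rose and 3 to 4 that fell, with groups separate upward in 18 to 23 and downward in 6 to 7. With the replicate block, 8 members were called higher, 0 lower, 13 rose and 4 fell, and no member changed its side of the threshold. The looser kB form raised the members with a match from 3 to 21. Without each sample in turn, the log2 fold change of Ifit3 ran from -1.13 to 0.218, turning sign without DMSO replicate 2, SD70 replicate 1 or SD70 replicate 3, that of Oasl1 from -0.00764 to 0.164, turning without DMSO replicate 2, and that of Bst2 from -0.0112 to 0.113, turning without SD70 replicate 2, none of them past the test. Of the single members' values under the alternatives, 356 kept their direction and side of an adjusted p of 0.01 and 21 lost it, all in Herc6, Ddx58, Ifi27 and Gbp7. On log2(FPKM + 1), Ifit1 (0.547), Rsad2 (0.569), Oasl2 (0.508) and Gbp7 (0.232) fell short of the fold threshold. Gbp7 had an adjusted p of 0.0109 on log2(FPKM + 1), and Xaf1 passed on both FPKM scales. Ifit1 moved from 3.63 to 5.14 without DMSO replicate 1 and Rsad2 from 4.21 to 4.87 without DMSO replicate 3, each from 5 counts under DMSO. The causes were not tested. For members with few or 0 counts under DMSO, a fall was not detectable at this depth.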
